A study of Arabidopsis thaliana with 4 samples.

Results

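Transcripts of 10 root aquaporins were followed in Arabidopsis thaliana, 6 plasma membrane intrinsic proteins (PIPs) and 4 tonoplast intrinsic proteins (TIPs). With the symbols of the authors' table (of the RefSeq gene table for PIP2B), and systematic names in brackets where they differ, these were PIP1A (PIP1;1), PIP1B (PIP1;2), PIP1;5, PIP2A (PIP2;1), PIP2B (PIP2;2), PIP2E (PIP2;6), GAMMA-TIP (TIP1;1), TIP2;2, TIP2;3 and TIP4;1. The members were chosen by gene code, with earlier results of these data known. A probe set was taken wherever its gene codes included 1 of the 10. This gave 11 probe sets for 10 genes, out of 21537 probe sets that name 22228 genes in all. Total RNA came from roots of 4-week-old plants in hydroponic culture. The 4 groups were wrky47-1, a mutant of the transcription factor gene WRKY47, in 25 µM AlCl3, the wild type in 25 µM AlCl3, wrky47-1 in the control solution and the wild type in the control solution. Both solutions contained 0.5 mM CaCl2 and were applied for 6 h. Each group had 1 array (n = 1), so a difference is one between single arrays. No spread between replicates could be set against it and no p-value was computed. The labels give no second mutant allele and no number of plants behind an array.

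Aquaporins are membrane channels that let water, and in some members ammonia, hydrogen peroxide or other small neutral solutes, pass down their gradient. PIPs sit in the plasma membrane and TIPs in the membrane of the vacuole, so together they set how easily water moves into a root cell and into its largest compartment. In roots, PIPs carry much of the water that crosses cells on its way to the xylem, and PIP1 proteins generally reach the membrane in complexes with PIP2 proteins.

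The probe sets lay over the following genes, with positions as the authors' table lists the alignments and with no genome build named there. PIP1A (AT3G61430) was aligned to chromosome 3 from 22733656 to 22735113 on the plus strand and PIP2A (AT3G53420) to chromosome 3 from 19803905 to 19805454 on the minus strand. On chromosome 2, all on the plus strand, PIP1B (AT2G45960) ran from 18910449 to 18911703, PIP2E (AT2G39010) from 16291563 to 16293746, GAMMA-TIP (AT2G36830) from 15445489 to 15446336 and TIP4;1 (AT2G25810) from 11012657 to 11013906. PIP1;5 (AT4G23400) was aligned to chromosome 4 from 12220791 to 12222155 and TIP2;2 (AT4G17340) to chromosome 4 from 9699317 to 9700250, both on the plus strand. TIP2;3 (AT5G47450) was aligned to chromosome 5 from 19248508 to 19249466 on the minus strand.

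Of the 11 probe sets 2 were shared. One names PIP2B (AT2G37170) and AT2G37180, which is PIP2;3, no member and the next protein-coding gene on the chromosome. The authors' table gives this probe set the symbol RD28, which in the RefSeq gene table is the symbol of AT2G37180, so it is called the PIP2B/RD28 probe set here. Its single listed alignment is on chromosome 2 from 15617778 to 15618937 on the plus strand, the table does not say over which of the 2 genes, and its signal cannot be divided between them. A second probe set listed for PIP1B also names AT5G07830 (GUS2). Its alignment lies on chromosome 5 from 2504233 to 2506567, and the transcript it lists belongs to GUS2 in the RefSeq gene table, where PIP1B is on chromosome 2. It is kept in the counts because the table names PIP1B for it, and its values are given apart from those of the other PIP1B probe set.

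The targeted gene WRKY47 had signals of 24.1 and 27.5 in the wrky47 Al and control arrays and of 203 and 173 in the wild-type Al and control arrays. The 40th percentile of all gene probe sets on an array was used as a detection floor, a signal of 75.1 in wrky47 Al, 75 in wild-type Al, 79.1 in wrky47 control and 81.1 in wild-type control. Of 8 root markers, 6 were above the floor in wrky47 Al, 7 in wild-type Al, 7 in wrky47 control and 8 in wild-type control. Of 6 probe sets for green tissue, 1, 2, 0 and 2 were above the floor in that order of arrays, and the small Rubisco subunit was below it on all 4. The medians of all gene probe sets were between 7.06 and 7.20 on the log2 scale.

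Aluminium went together with lower signals of 9 of the 10 aquaporins in both genotypes. Over all measured probe sets 57.5% were lower in Al in wrky47 and 63.9% in wild type. TIP4;1, TIP2;3 and PIP1;5 fell by 2-fold or more in wild type, and TIP2;3 and PIP1;5 in wrky47, where TIP4;1 was lower as a bound. PIP2E was the exception and rose in wild type. Of the 11 probe sets, all measured in wild type, 3 fell and 1 rose by 2-fold, where 2.4% of all 13110 measured probe sets fell and 3.14% rose. In wrky47, 2 of 10 measured probe sets fell and 0 rose, against 1.96% and 3.5% of 13134. The median log2 difference of the members was -0.55 in wrky47 and -0.65 in wild type, beside -0.06 and -0.12 over all measured probe sets. Relative to these shifts of the whole array, 2 members fell and 1 rose by 2-fold in wild type, while 2 fell in wrky47. Because the members were chosen with earlier results of these data known, their shares beside those of all probe sets are a description only.

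**Figure D1:**
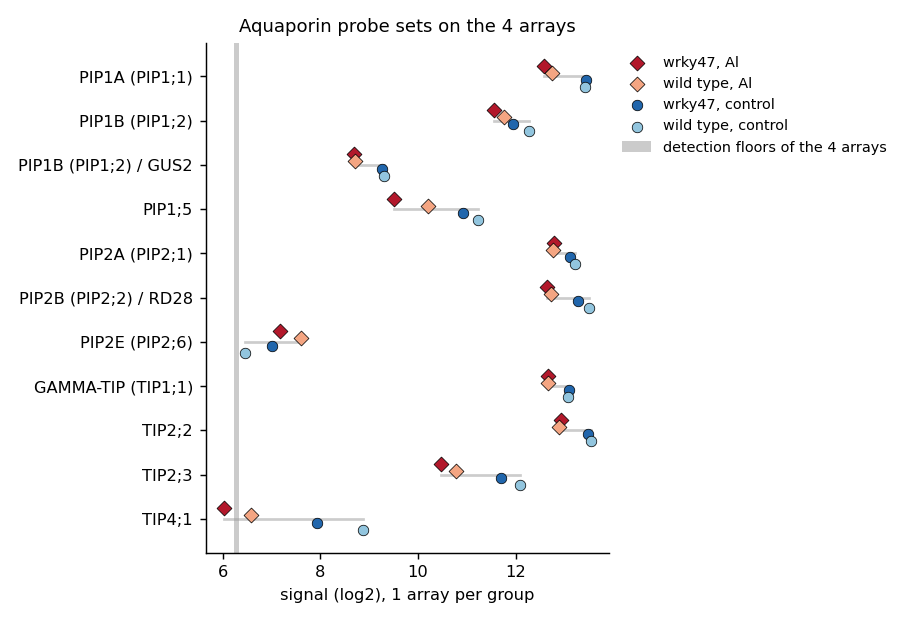
Log2 signal (horizontal axis) of the 11 aquaporin probe sets on the 4 arrays, with diamonds for Al and circles for control solution, 1 array per group, and a grey band for the detection floors. Both diamonds lie left of both circles in every row except PIP2E, and in the lowest row, TIP4;1, the wrky47 Al array is below the floors.

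Among the PIP1 genes, PIP1;5 moved most. It had signals of 722 in wrky47 Al, 1184 in wild-type Al, 1954 in wrky47 control and 2398 in wild-type control. Both Al arrays were below both control arrays, and within each solution wrky47 was the lower. Its log2 difference between Al and control was -1.44 in wrky47 (2.71-fold) and -1.02 in wild type (2.02-fold). The wild-type value lay just past 2-fold and was -0.95 after centring each array and -0.96 after scaling to the 75th percentile.

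PIP1A, one of the abundant plasma membrane channels of the root, had signals of 6112 in wrky47 Al, 6862 in wild-type Al, 11007 in wrky47 control and 10925 in wild-type control. The control arrays were nearly equal, and both Al arrays lay well below them. The log2 difference was -0.85 in wrky47 and -0.67 in wild type, short of 2-fold in both. PIP1B, known from mutant plants as a main contributor to root water uptake, had signals of 3019 in wrky47 Al, 3494 in wild-type Al, 3961 in wrky47 control and 4967 in wild-type control. Its arrays stood in the same order as those of PIP1;5, with differences of -0.39 in wrky47 and -0.51 in wild type. The probe set that names both PIP1B and GUS2 had signals of 417 and 419 in wrky47 and wild-type Al and of 615 and 634 in wrky47 and wild-type control. It differed little between the genotypes and had log2 differences between Al and control of -0.56 in wrky47 and -0.60 in wild type.

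PIP2 proteins are the plasma membrane channels with high water permeability of their own. PIP2A, which also passes hydrogen peroxide, had signals of 7074 in wrky47 Al, 7001 in wild-type Al, 8820 in wrky47 control and 9459 in wild-type control. Its log2 differences of -0.32 in wrky47 and -0.43 in wild type were the least negative of the PIP members that were lower in Al. The PIP2B/RD28 probe set, of a tandem pair expressed strongly in roots, had signals of 6450 in wrky47 Al, 6817 in wild-type Al, 9937 in wrky47 control and 11655 in wild-type control. The 2 solutions did not overlap, and the differences were -0.62 in wrky47 and -0.77 in wild type.

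PIP2E went the other way. Its signals were 145 in wrky47 Al, 194 in wild-type Al, 130 in wrky47 control and 87.3 in wild-type control. Both Al arrays were above both control arrays, and the wild-type control array, little above its floor of 81.1, was the lowest. The log2 difference between Al and control was 1.15 in wild type (2.22-fold), higher than in 97.6% of all measured probe sets, and 0.16 in wrky47 (1.12-fold). Its signals were near the floor, and the wild-type difference was 0.96 once the 20th percentile of each array had been added to its signals as an offset.

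GAMMA-TIP, which is abundant in vacuoles of expanding cells, had signals of 6451 in wrky47 Al, 6506 in wild-type Al, 8778 in wrky47 control and 8558 in wild-type control. The genotypes were almost level in each solution, and the Al differences were -0.44 in wrky47 and -0.40 in wild type. TIP2;2, a delta-type TIP of the root, had signals of 7825 in wrky47 Al, 7572 in wild-type Al, 11309 in wrky47 control and 11912 in wild-type control, with differences of -0.53 in wrky47 and -0.65 in wild type. These were again lower in Al on both pairs of arrays without reaching 2-fold.

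TIP2;3, a close relative of TIP2;2 annotated as a transporter of ammonia as well as water, had signals of 1415 in wrky47 Al, 1745 in wild-type Al, 3319 in wrky47 control and 4362 in wild-type control. It fell by 1.23 on the log2 scale in wrky47 (2.35-fold) and by 1.32 in wild type (2.5-fold). Within each solution wrky47 was the lower array.

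TIP4;1, a tonoplast aquaporin known mainly from roots, had signals of 65.4 in wrky47 Al, 95.6 in wild-type Al, 246 in wrky47 control and 470 in wild-type control. The wrky47 Al array was below its floor of 75.1 and the wild-type Al array little above its own. It fell by 2.30 in wild type (4.92-fold), the 16th lowest of 13110 measured probe sets, and was at least 3.27-fold lower in Al than in control in wrky47. Without the filter its difference in wrky47 was -1.91.

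**Figure D2:**
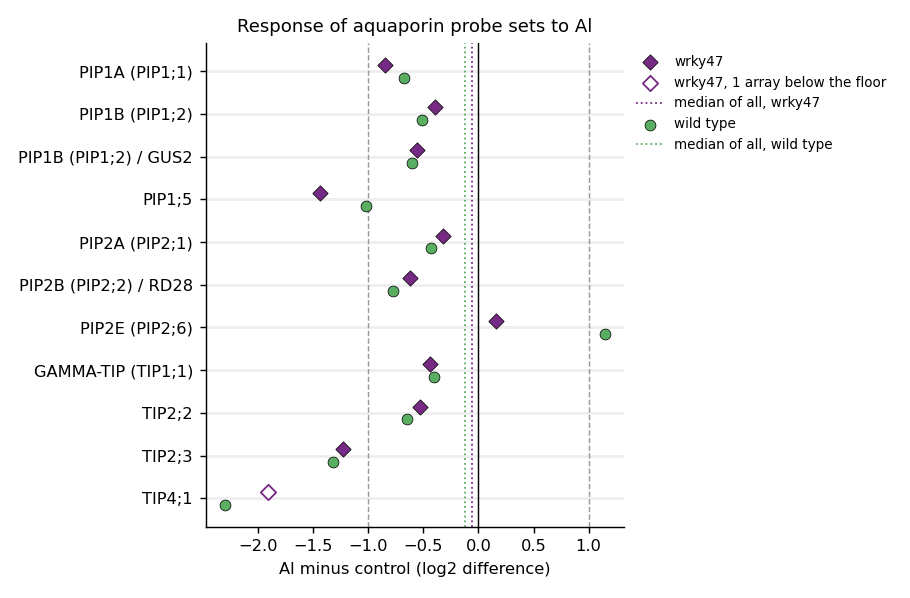
Log2 difference between Al and control (horizontal axis) for each aquaporin probe set, with purple diamonds for wrky47 and green circles for wild type, dashed lines at 2-fold and dotted lines at the medians of all probe sets. All values except those of PIP2E are below 0, and the open diamond in the lowest row rests on an array below the floor.

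The members kept a similar order of responses in the genotypes, which share no array in these comparisons. Across the 10 probe sets above the floor on all 4 arrays, Pearson's r between the wrky47 and wild-type responses was 0.85 and Spearman's rho 0.93, beside 0.88 and 0.78 over all 12884 such probe sets. These are descriptions across probe sets, which share the arrays and are not independent replicates. For 9 of these 10 both Al arrays lay below both control arrays, an order that 41.8% of all probe sets had. For the other one, PIP2E, both Al arrays lay above, as in 24.2% of all.

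Most members are among the brighter probe sets, and 5 of them, PIP1A, PIP2A, PIP2B/RD28, GAMMA-TIP and TIP2;2, had a mean log2 signal of at least 12. Their median difference was -0.53 in wrky47 and -0.65 in wild type, beside -0.09 and -0.10 over all 312 probe sets of that brightness, a limit chosen after the values were seen. Of these 312, 6 fell by 2-fold in wrky47 and 4 in wild type. None of the 5 aquaporins did.

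**Figure D3:**
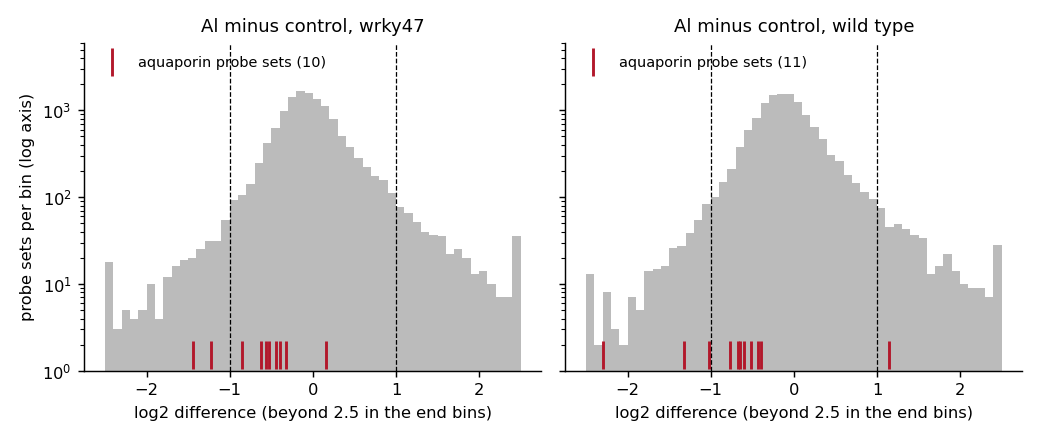
Number of probe sets per bin (vertical log axis) by log2 difference between Al and control (horizontal axis) for wrky47, left, and wild type, right, in grey, with red ticks at the aquaporin probe sets and dashed lines at 2-fold. Most ticks lie between -1 and -0.3, left of the peak of the grey distribution but within it.

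Several root markers were lower on the Al arrays as well. The summed signal of the 8 root markers was 4157 in wrky47 Al, 5414 in wild-type Al, 12395 in wrky47 control and 13975 in wild-type control. Most of each sum was the single gene NRT2.1, with signals of 3052, 4186, 9867 and 9817 in that order of arrays. The sums therefore mainly follow NRT2.1 and do not measure the amount of root tissue. All 7 measured markers were below 0 in wild type and all 6 in wrky47, beside 63.9% and 57.5% of all measured probe sets. Those that fell by 2-fold were CASP1 of the endodermis and the nitrate transporter NRT2.1 in both genotypes and the stelar potassium channel SKOR in wild type. SHR and SCR, which specify the endodermis, were at -0.17 and -0.49 in wrky47 and at -0.44 and -0.35 in wild type. The part of these changes in the aquaporin values was not tested, and in whole roots fewer cells of a type and less RNA per cell cannot be told apart. The 10 clock genes, given because aquaporin transcripts cycle over the day, had a summed signal of 3805 in wrky47 Al, 3756 in wild-type Al, 3929 in wrky47 control and 4259 in wild-type control, and none of the 7 measured passed 2-fold.

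The mutant was then compared with the wild type, to ask how the loss of WRKY47 bears on the members. No measured member differed by 2-fold between the genotypes in either solution. TIP4;1 was not measured in Al, where a bound of at least 1.27-fold leaves a 2-fold difference open. The counts were 0 of 10 measured in Al and 0 of 11 in control, where 0.361% of 13280 and 0.331% of 13281 probe sets passed 2-fold in either direction. Counts of 0 are near these shares for so few probe sets and are no result about the members. The median of the members was -0.12 in Al and -0.10 in control, beside 0.00 and -0.05 over all probe sets. The comparisons between genotypes reuse the arrays of the Al comparisons, so their values are not independent of those.

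PIP1B and the 3 members that fell in Al had lower signals in wrky47 in both solutions. TIP4;1 was at -0.94 in control, a 1.91-fold lower signal and the 45th lowest of 13281, and in Al it was at least 1.27-fold lower as a bound. PIP1;5 was at -0.71 in Al, the 76th lowest of 13280, and at -0.29 in control. TIP2;3 was at -0.30 in Al and -0.39 in control, and the PIP1B probe set on chromosome 2 at -0.21 and -0.33. Of the 10 probe sets above the floor on all arrays, 5 were lower in wrky47 in both solutions, among them the PIP2B/RD28 probe set at -0.08 and -0.23 and the PIP1B/GUS2 probe set at -0.01 and -0.04, where 35.6% of all probe sets had that order. PIP1A, PIP2A, GAMMA-TIP and TIP2;2 were within 0.17 of 0 in both solutions and differed in sign between them as deposited. After quantile normalization PIP1A in control was at -0.03, and after centring and scaling the PIP1B/GUS2 probe set in control was at 0.01 and 0.02. Of the root markers, 5 of 7 measured in control were lower in wrky47 (median -0.29), as were 60.2% of all probe sets. By 2-fold 2 of them were lower, CASP1 at -1.04 and SKOR at -1.08. CASP1 was between -0.98 and -0.96 after quantile normalization, centring or scaling. In Al 5 of 6 root markers were lower (median -0.31), beside 49.4% of all probe sets, none by 2-fold, and CASP1 was at -0.37. The part of these differences in the aquaporin values was not tested.

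PIP2E was the member whose genotype difference turned most between the solutions. It was at -0.41 in Al (145 in wrky47, 194 in wild type) and at 0.57 in control (130 in wrky47, 87.3 in wild type), higher there than in 99.1% of all probe sets. The Al response in wrky47 minus that in wild type was -0.99 on the log2 scale, the 10th lowest of 12884 probe sets. It was just short of 2-fold as deposited and between -1.06 and -1.04 after quantile normalization, centring or scaling. With the offset added to the signals it was -0.83, and under a stricter detection filter PIP2E was not measured. The value rests in part on the wild-type control signal of 87.3, little above the floor of 81.1 on that array. For PIP1;5 this difference of responses was -0.42, and for the other 8 probe sets measured it lay between -0.18 and 0.15. As deposited 0 of 10 measured members passed 2-fold, which is near the share of 0.233% over all.

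**Figure D4:**
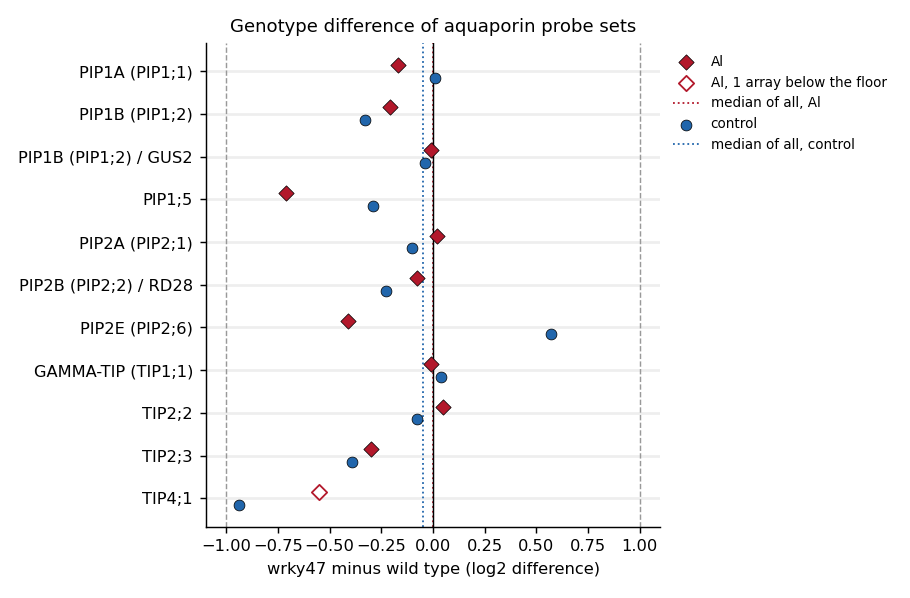
Log2 difference between wrky47 and wild type (horizontal axis) for each aquaporin probe set, with red diamonds for Al, blue circles for control, dashed lines at 2-fold and dotted lines at the medians of all probe sets. No point lies beyond the dashed lines, and PIP2E is on opposite sides of 0 in the 2 solutions.

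The rest of the PIP and TIP families was read from a list of 13 further genes, which lie on 12 probe sets other than PIP2B/RD28, 7 of them measured. The median Al difference of these was -0.28 in wrky47 and -0.34 in wild type, with 2 fallen in wrky47, 1 fallen in wild type and 0 risen. Over all measured probe sets 1.96% fell and 3.5% rose in wrky47, and 2.4% and 3.14% in wild type. TIP1;2, a second vacuolar TIP1, fell by 1.06 in wrky47 and by 1.05 in wild type, with signals of 3515 and 4059 in wrky47 and wild-type Al and of 7305 and 8386 in wrky47 and wild-type control. PIP2;4 fell by 1.24 in wrky47 and was at -0.88 in wild type, and a probe set that PIP2;7 and PIP2;8 share was at -0.68 and -0.73. DELTA-TIP (TIP2;1) was at -0.18 and -0.34. PIP1C (PIP1;3) was at -0.28 in wrky47 and 0.06 in wild type, PIP1;4 at 0.26 and 0.11, and PIP2;5 at -0.14 and -0.25. TIP3;1 and BETA-TIP, known from seeds, and TIP1;3 and TIP5;1, known from pollen, were below the floor on all 4 arrays.

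By class, all measured TIP probe sets of both lists were below 0 in Al, 5 of 5 in wrky47 and 6 of 6 in wild type. The PIP1 probe sets were below 0 in 4 of 5 cases in wrky47 and 3 of 5 in wild type, and the PIP2 probe sets in 5 of 6 in both genotypes. These counts leave out the PIP1B/GUS2 probe set. Over all measured probe sets 57.5% were below 0 in wrky47 and 63.9% in wild type.

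**Figure D5:**
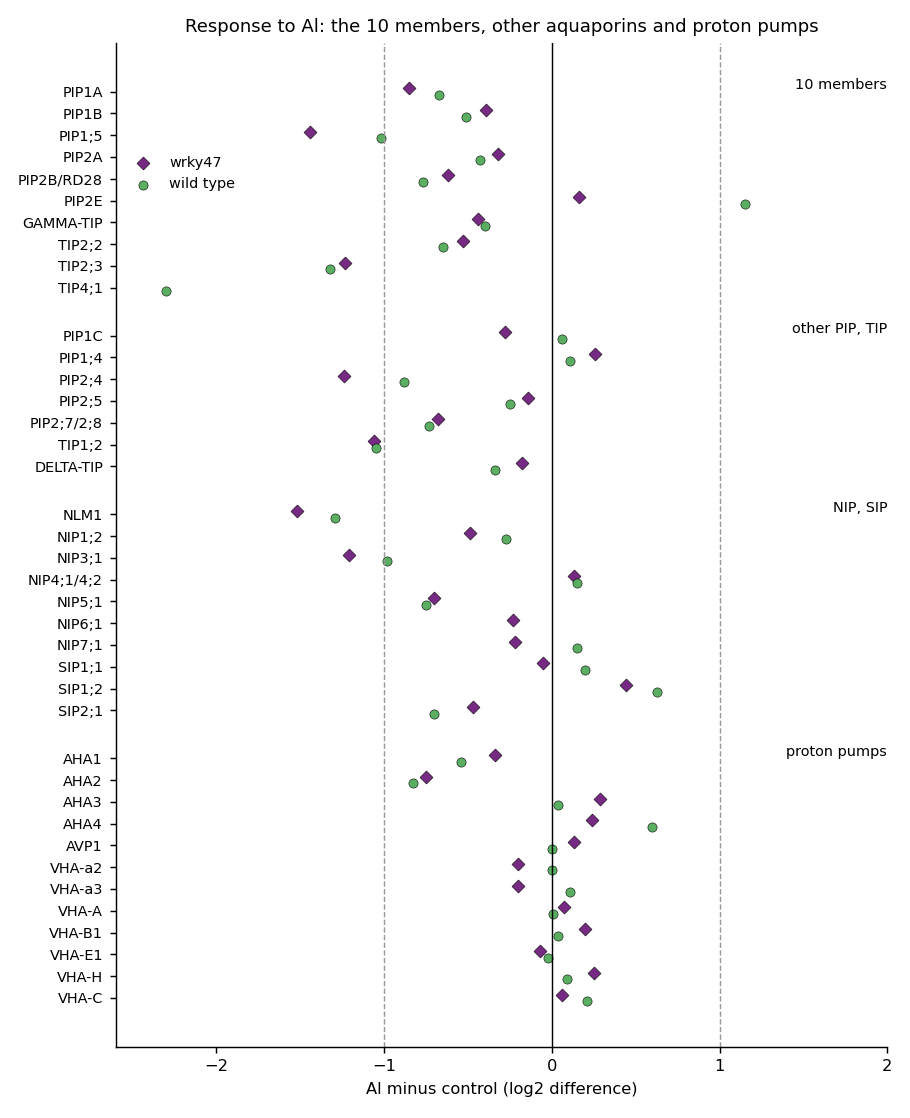
Log2 difference between Al and control (horizontal axis) for the 10 members, other PIP and TIP genes, NIP and SIP genes and proton pumps above the floor, with purple diamonds for wrky47 and green circles for wild type and dashed lines at 2-fold. The V-type pump subunits and AVP1 cluster near 0, while most PIP, TIP and NIP genes lie below it.

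Of the other aquaporin classes, the NIP probe sets were below 0 in Al in 6 of 7 cases in wrky47 and 4 of 6 in wild type. Their medians were -0.49 in wrky47 and -0.51 in wild type, beside -0.39 and -0.51 for the PIP1 probe sets. The SIP probe sets were below 0 in 2 of 3 cases in wrky47 and 1 of 3 in wild type. NIPs carry solutes such as boric acid, arsenite or, for NIP1;2, aluminium malate, and SIPs are small channels of the endoplasmic reticulum. Of 11 probe sets for 12 NIP and SIP genes, 10 were measured in wrky47 with 2 fallen and 0 risen (median -0.35), and 9 in wild type with 1 fallen and 0 risen (median -0.27). Over all measured probe sets 1.96% fell in wrky47 and 2.4% in wild type. NLM1 (NIP1;1) fell in both genotypes, by a log2 difference of -1.52 in wrky47 and -1.29 in wild type, and NIP3;1, whose probe set also names AT2G21020, fell by 1.21 in wrky47 and was at -0.98 in wild type. The boric acid channel NIP5;1 was at -0.70 in wrky47 and -0.75 in wild type. SIP1;2 had the highest values of the list, 0.44 in wrky47 and 0.63 in wild type.

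Proton pumps of the same membranes were set beside the channels. None of their 12 probe sets passed 2-fold in either genotype, which is near the shares over all probe sets given above. Their median Al difference was 0.06 in wrky47 and 0.02 in wild type. The plasma membrane pump AHA2, the main one of the root, had the lowest value, -0.75 in wrky47 and -0.83 in wild type, followed by AHA1 at -0.34 and -0.54. AVP1, the pyrophosphatase of the vacuole, was at 0.13 in wrky47 and lay within 0.01 of 0 in wild type. Among 11 genes for PIP delivery, phosphorylation and turnover, SYP121, a plasma membrane syntaxin that delivers PIP channels, rose by 1.04 in wrky47 and by 1.12 in wild type. It was the 1 gene of that list past 2-fold in each genotype, out of 8 and 9 measured. Over all measured probe sets 3.5% rose in wrky47 and 3.14% in wild type. CPK7, a calcium-dependent kinase, was at 0.97 and 0.51, SYP61 at 0.70 and 0.32, and the ubiquitin ligase RMA2 at -0.72 and -0.93 in wrky47 and wild type. The list's median was 0.19 in each genotype. Between the genotypes, 0 measured probe sets of these 4 lists (further PIPs and TIPs, NIPs and SIPs, pumps, and PIP delivery genes) passed 2-fold in either solution. That is near the share over all measured probe sets, 0.361% in Al and 0.331% in control. The root markers CASP1 and SKOR passed 2-fold in control.

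The genes most like the 3 members of widest range were found by the root mean square distance between mean-centred log2 signals over the 4 arrays. For TIP4;1, with a range of 2.85, these were AT1G30750 at a distance of 0.045, ESB1 at 0.046 and the peroxidase PER64 at 0.097, among 12419 candidates. The wrky47 Al signal of TIP4;1, below its floor, entered this range and these distances as deposited. Over the 3 arrays above the floor, an alternative chosen after the values were seen, the range was 2.30 and the same 3 genes were nearest in another order, PER64 at 0.044, ESB1 at 0.049 and AT1G30750 at 0.051. ESB1 was at -1.94 in wrky47 and -2.29 in wild type in Al against control, and at -0.48 in Al and -0.83 in control in wrky47 against wild type. For PIP1;5, with a range of 1.73, they were AT3G43670 (0.071), AT3G01690 (0.073) and the ubiquitin ligase ATL9 (0.077). For TIP2;3, with a range of 1.62, they were AT1G05700 (0.042), TPR12 (0.062) and LSH9 (0.064), and both of these searches had 12306 candidates. With 4 arrays, a small distance is easily met by some of so many candidates and is given as a description.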

How the data were processed

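Root RNA of 4 groups was measured on 1 array each, grouped by the genotype and solution in the labels. The authors deposited log2 signals of 22810 probe sets. The deposited intensity columns headed raw are 2 to the power of these (largest gap 1.6e-06 in log2), so they are not the scanner's values. A second deposited table holds the same values (0 differ). MAS5 is named in the submitters' processing notes. Not given in the sources used here were its version and settings, the scaling between arrays and the genome build.

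The 64 control probe sets were left out. A probe set was measured in a comparison if above the 40th percentile of gene probe sets on every array used. Below it, a bound against that floor is given. Log2 differences were taken between arrays, and 2-fold or more was called risen or fallen. With n = 1 no test was made, and the number of arrays limits the precision. Gene codes were matched to the RefSeq table of TAIR10.1 (22101 of 22228) for symbols and neighbours only. Members and lists were chosen with earlier results of these data known. Named genes are the 10 members, up to 4 genes of largest difference per list with others for context (such as DELTA-TIP, PIP1C, PIP1;4, AVP1, SHR and SCR) chosen after their values were seen, and the 3 nearest genes of the 3 members of widest range. Alternatives were other scalings, filters of none and the 60th percentile, 1.5-fold and 3-fold thresholds, an offset, single-gene probe sets and the second table. The computation was tested on simulated data, with Python 3.11.15, pandas 2.3.3 and numpy 2.4.6.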

Additional observations from a re-analysis of the deposited data

Results flagged for a closer look

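The wrky47 minus wild type difference had opposite signs in Al and in control for 5 probe sets, each resting on single arrays, so none of these was tested. For PIP2E the values were -0.41 in Al and 0.57 in control, which makes -0.99 between them. The other 4 were small: PIP1A was at -0.17 in Al and 0.01 in control (-0.18 between them), PIP2A at 0.02 and -0.10 (0.12), GAMMA-TIP at -0.01 and 0.04 (-0.05) and TIP2;2 at 0.05 and -0.08 (0.12). No measured member had Al responses of opposite sign in the genotypes.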

How the results depend on the processing

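Of 447 differences of single members under the alternatives, 441 kept their side of 2-fold, 3 dropped below it and 3 passed it, and no called difference reversed. The exceptions were PIP1;5 in wild type after centring or scaling, PIP2E in wild type with the offset, and the difference of the PIP2E responses after quantile normalization, centring or scaling. All of these came from the 3 scalings and the offset, the only alternatives counted here that change a signal. The filters, the single-gene probe sets, the second table and leaving out the PIP1B/GUS2 probe set cannot move a difference. Their part of the 441 was fixed in advance. A sign change occurred in 3 differences, none larger than 0.04 as deposited. The number of members risen in wild type was 1 as deposited and 0 with the stricter filter, which PIP2E fails, with the 3-fold threshold and with the offset. Members fallen in wild type numbered 3, and 7 at 1.5-fold and 1 at 3-fold, where 1220 and 73 of all 13110 probe sets fell. They numbered 2 after centring, after scaling and with the stricter filter, which TIP4;1 fails as well in wild type. In wrky47 members fallen numbered 2, and 4 at 1.5-fold and 0 at 3-fold, where 916 and 78 of all 13134 fell. At 1.5-fold 1 member was lower in wrky47 than in wild type in each solution, against 0 at 2-fold. Of all probe sets, 134 of 13280 in Al and 259 of 13281 in control were lower in wrky47 at 1.5-fold. For the difference of the responses, 1 member was lower after each of the 3 scalings and at 1.5-fold, against 0 as deposited. Over all 12884 probe sets, 113 were lower at 1.5-fold, and 13, 14 and 14 at 2-fold after quantile normalization, centring and scaling. Under the other alternatives, including one chosen after seeing the data that leaves out the PIP1B/GUS2 probe set, no other count of members moved by over 1.5 times. The members' medians kept their sign except that of the difference of responses, 0.06 as deposited and -0.01 after scaling to the 75th percentile. Over all probe sets, the share of calls that were higher in wrky47 in control was 29.5% as deposited and 44.2%, 43.9% and 46.3% after quantile normalization, centring and scaling, and that of the difference of responses 70% against 51.9%, 48.1% and 48.1%. No paired analysis was possible because each group has 1 array, so that there is no second replicate block to pair over. An additive fit of genotype and solution over the 4 arrays, which would leave 1 residual degree of freedom, was not run. PIP2E lies near the floor and TIP4;1 near or below it on the Al arrays, where signal over background limits the values.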
